A study of Mus musculus with 6 samples.

Results

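The miR-143 and miR-145 cluster was followed in mouse nephron progenitor cells, the cells of the kidney cortex that form nephrons, at an embryonic stage and at birth. Its members were the 4 mature miRNAs of the deposited expression table named mmu-miR-143-3p, mmu-miR-143-5p, mmu-miR-145a-5p and mmu-miR-145a-3p, written here without the species prefix, out of 1034 mature miRNAs in all, and they were taken by name, with earlier results of these data known. Cells came from CD1 mice at E14.5 (an embryonic day, 3 samples) or P0 (the day of birth, 3 samples), with no genetic change or drug treatment given in the labels for either stage. Per the labels' protocols each sample pooled up to 24 kidneys of a litter, cortical cells were loosened for 15 min with collagenase and pancreatin, and magnetic beads with an antibody against the integrin Itga8 selected the progenitors. Itga8 is also known from mesangial and other smooth-muscle-like cells of the kidney, and the table holds miRNAs only, so messenger RNA markers of the progenitors were not examined here.

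A miRNA hairpin is cut into a duplex of a 5p and a 3p arm, of which usually a single arm, the guide, is kept in the Argonaute protein and pairs with messenger RNAs through its seed, while the other arm, the passenger, is mostly degraded. In the miR-143 hairpin the guide is the 3p arm, and in miR-145 it is the 5p arm. Both hairpins are transcribed together and are known for their high level in vascular smooth muscle, pericytes and other mesenchymal cells, where they help to set the contractile state through targets such as Klf4 and Klf5. They are therefore commonly read as a sign of mural and stromal cells in a mixed tissue.

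The arms were compared with miRNAs of other cell types and with the miRNAs whose stage profile was most like that of miR-143-3p. In the table of RefSeq sequences (GRCm38.p6) used here, 8 of the 12 miRNAs named for this purpose were matched: the comparison miRNAs, and not miR-143-3p, miR-143-5p, miR-145a-5p or miR-145a-3p. The sequences below are the yardsticks of the comparisons, with the seed (bases 2 to 8) in capitals. miR-199a-3p is abundant in mesenchymal cells, miR-126a-3p is made from an intron of the endothelial gene Egfl7, and miR-196a-5p comes from the posterior Hox clusters.
miR-199a-3p: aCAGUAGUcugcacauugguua
miR-126a-3p: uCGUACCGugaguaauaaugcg
miR-196a-5p: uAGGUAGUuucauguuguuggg
The next 5 had the profiles closest to that of miR-143-3p, as described after the stage comparison.
miR-30a-3p: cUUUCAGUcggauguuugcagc
miR-497a-5p: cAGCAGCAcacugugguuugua
miR-30a-5p: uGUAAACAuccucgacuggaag
miR-181a-1-3p: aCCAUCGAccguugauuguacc
miR-148b-3p: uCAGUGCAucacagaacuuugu
The 8 sequences carry 8 distinct seeds, so none of these miRNAs shares a target seed with another of them.

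All 4 arms lie on the minus strand of chromosome 18 in the coordinates of the table, whose build is mm10 per the submitters' processing notes. The positions are 61649199 to 61649219 for miR-143-3p, 61649233 to 61649253 for miR-143-5p, 61647866 to 61647888 for miR-145a-5p and 61647827 to 61647848 for miR-145a-3p. In GENCODE M21 (build GRCm38) these positions fall inside the single-hairpin genes Mir143 and Mir145a, which are separated by 1301 bases. The host transcript Carmn, a long non-coding RNA, ends 366 bases before Mir143 in that annotation, whereas the RefSeq model of Carmn spans both hairpins. Each arm has a single row in the table, so its reads were not divided among genomic copies by name. A miRNA of similar name, miR-145b, lies elsewhere on chromosome 18 and had at most 0.411 TPM in any library.

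Before the results, the libraries themselves differed. Reads recovered from the deposited values ranged from 2649506 to 34934526 per library, and the lowest totals were those of E14.5 replicates 1 and 3. Where a sentence gives 3 values for a stage, they are those of its replicates 1, 2 and 3 in that order. P0 replicate 1 stood between the stages on the first principal component of all tested miRNAs (score 1.14, against 33.2 and 33.5 for the other P0 libraries and −26.2 to −16.2 at E14.5), so results are also given without it. Values are TPM, which divides each miRNA by its length and by the library total, so a few very abundant miRNAs lower all others. The median of all 670 tested miRNAs changed by −1.20 on the log2 scale from E14.5 to P0 in TPM and by −0.17 after median-of-ratios scaling, which sets libraries by their typical miRNA. The main changes of the cluster are therefore set against these medians. The labels give the samples of a stage as separate litters, and no sequencing batch was given, so no within-batch value exists.

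The cluster was abundant in these cells and lower in TPM at P0. The summed TPM of the 4 arms was 2.92%, 1.75% and 2.11% of the library at E14.5, against 1.31%, 0.498% and 1.17% at P0. It averaged 2.26% ± 0.599 in the embryonic and 0.993% ± 0.434 in the newborn libraries (SD, n = 3), and the stages did not overlap. Most of it was miR-143-3p, which made up 88.9% to 92.1% of the cluster's TPM at E14.5 and 92.4% to 96.4% at P0. In these bulk samples, fewer cells of a type and less RNA per cell cannot be told apart.

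miR-143-3p, the guide arm of miR-143, had 26582, 16154 and 18795 TPM at E14.5, against 12115, 4796 and 11277 TPM at P0. All P0 libraries lay below all E14.5 libraries, and P0 replicate 2 was the lowest. It averaged 20510 ± 5421 TPM in the embryonic and 9396 ± 4005 TPM in the newborn libraries (SD, n = 3), so the E14.5 mean was 2.18 times the P0 mean. On the log2(TPM + 1) scale the change was −1.21 (SE 0.48), which did not pass the threshold of 0.05 in limma's test across all miRNAs (adjusted p = 0.0655). The median of all tested miRNAs was nearly the same at −1.20, and 49.3% of them had a lower value. Ordered by level within each library, miR-143-3p was number 6, 17 and 16 of 1034 in the E14.5 libraries and number 21, 24 and 16 in the P0 libraries.

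miR-143-5p, the passenger arm, had 429, 168 and 392 TPM at E14.5, against 132, 29.7 and 56.5 TPM at P0. The stages did not overlap, but E14.5 replicate 2 lay much closer to P0 replicate 1 than to the other E14.5 libraries. It averaged 329 ± 141 TPM in the embryonic and 72.7 ± 53.0 TPM in the newborn libraries (SD, n = 3), and its log2 change was −2.31 (SE 0.66, limma adjusted p = 0.0200). It rested on 629 to 4367 reads per library.

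miR-145a-5p, the guide arm of miR-145a, had 1773, 943 and 1515 TPM at E14.5, against 661, 127 and 311 TPM at P0. P0 replicate 1 was the highest P0 library and again lay nearest to E14.5 replicate 2. It averaged 1410 ± 425 TPM in the embryonic and 366 ± 271 TPM in the newborn libraries (SD, n = 3), and its log2 change was −2.19 (SE 0.63, limma adjusted p = 0.0200). Its position in the order of levels was 66 to 89 at E14.5 and 87 to 141 at P0.

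miR-145a-3p, the passenger arm of miR-145a, had 447, 274 and 433 TPM at E14.5, against 201, 32.0 and 48.0 TPM at P0. P0 replicates 2 and 3 were low, and P0 replicate 1 lay nearest to the lowest E14.5 library. It averaged 385 ± 95.9 TPM in the embryonic and 93.5 ± 93.1 TPM in the newborn libraries (SD, n = 3). The log2 change was −2.45 (SE 0.69, limma adjusted p = 0.0181), the most negative of the 4 arms.

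**Figure D1:**
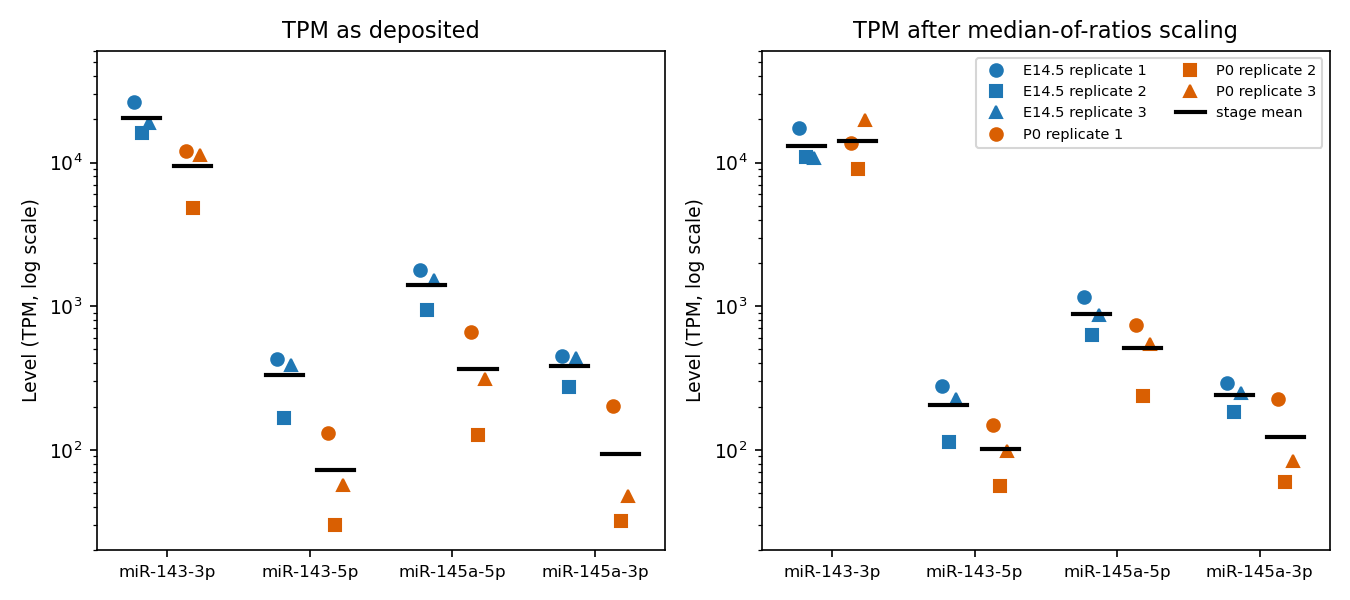
Level of each arm (TPM, log scale) in every library, as deposited (left) and after median-of-ratios scaling (right). Colours mark the stage, symbols the replicate, and black bars the stage mean of 3 libraries. In the left panel the stages of all 4 arms are separate, and in the right panel all 4 overlap.

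In TPM 3 of the 4 arms thus fell and passed the test, against 32.8% of all 670 tested miRNAs that were called lower at P0. The stages did not overlap for 4 of 4 arms, lower at P0, against 46.4% of all tested miRNAs. The median change of the 4 arms was −2.25 against −1.20 for all tested miRNAs. The 4 arms come from hairpins that are transcribed together, so these counts are not separate observations and show no enrichment. Without P0 replicate 1, all 4 arms were called lower, from −1.45 (SE 0.37, limma adjusted p = 0.00532) for miR-143-3p to −3.23 (SE 0.37, limma adjusted p = 3.74e-05) for miR-145a-3p, and 53.4% of all tested miRNAs were then called lower, with a median of −1.42 for all. Without E14.5 replicate 1, without E14.5 replicate 3 or without P0 replicate 2, 0 of 4 arms were called (limma adjusted p of 0.0676 to 0.296), against 16.4%, 9.70% and 16.7% of all tested miRNAs called lower.

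After median-of-ratios scaling 0 of the 4 arms passed the limma test in either direction, at an adjusted or an unadjusted p, whereas 5.22% of all tested miRNAs were called lower and 5.67% higher. With upper-quartile scaling or limma-voom on the recovered reads 0 of 4 arms were called as well, against 3.73% and 1.64% of all tested miRNAs called lower. The change of miR-143-3p turned from negative to 0.079 (SE 0.45, limma adjusted p = 0.912). Its scaled levels were 17365, 10858 and 10827 at E14.5, against 13642, 8971 and 19641 at P0, so P0 replicate 2 was the lowest and P0 replicate 3 the highest of the 6 libraries. The other 3 arms kept a negative sign, with −1.04 (SE 0.55, limma adjusted p = 0.203) for miR-143-5p, −0.91 (SE 0.52, limma adjusted p = 0.233) for miR-145a-5p and −1.18 (SE 0.56, limma adjusted p = 0.162) for miR-145a-3p. Their stages overlapped, in each case because P0 replicate 1 lay within the E14.5 range, and 19.6% of all tested miRNAs were lower without overlap on this scale. Without P0 replicate 1, an alternative chosen after seeing the data, these 3 arms had log2 changes of −1.42, −1.31 and −1.79 (limma adjusted p of 0.0315, 0.0286 and 0.00345), while miR-143-3p was at 0.012 (limma adjusted p = 0.982). The library left out was the P0 library nearest to E14.5 in these same data, so leaving it out favours a wider gap between stages. No other library was left out on this scale, so these p-values are descriptive only. In that fit 27.2% of all tested miRNAs were called lower and the median of all was −0.33.

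**Figure D2:**
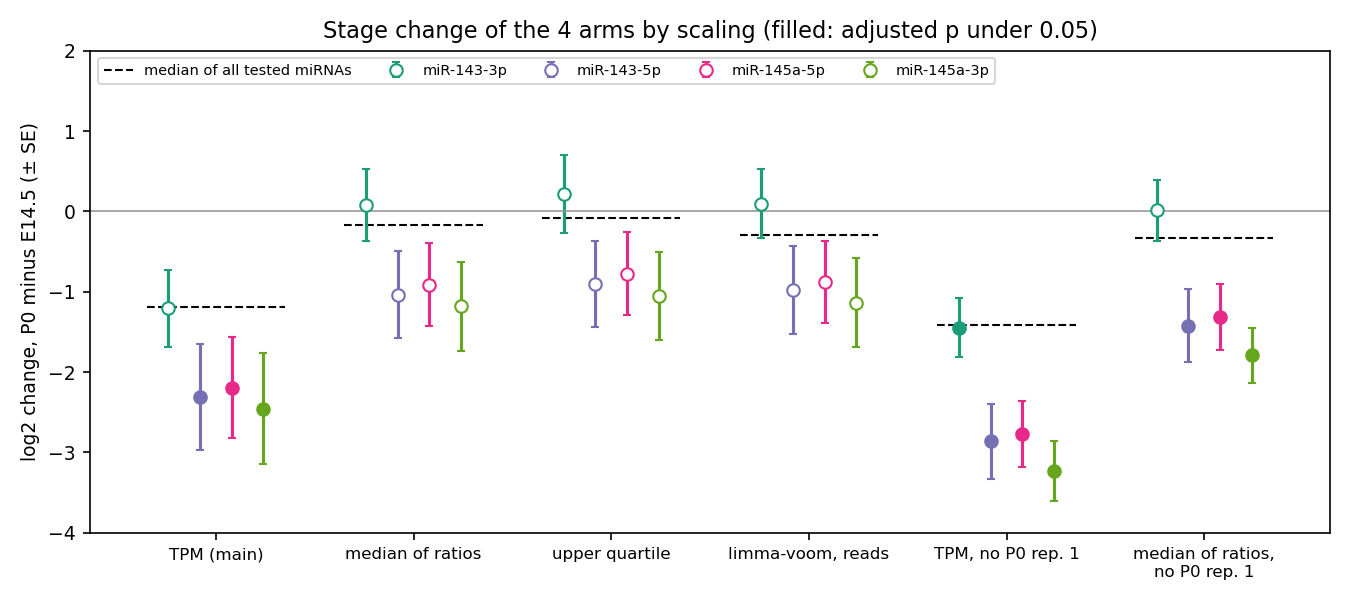
Change of each arm from E14.5 to P0 (log2, with its SE) under 4 ways of scaling and, for 2 of them, without P0 replicate 1. Dashed lines give the median of all tested miRNAs, and filled points have an adjusted p under 0.05. miR-143-3p sits above the dashed line or within its own SE of it, and the other 3 arms lie below it in each setting shown.

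In the authors' deposited table, an adjusted p-value under 0.05 was given for 0 of 4 arms, whereas 8.21% of the same 670 miRNAs were called lower and 7.76% higher there. Its log2 fold change, read as P0 over E14.5, was 0.32 with a standard error of 0.62 for miR-143-3p in the authors' deposited table (adjusted p-value 0.756). For the other arms the authors' deposited table gave −0.65 (adjusted p-value 0.50) for miR-143-5p, −0.64 (0.490) for miR-145a-5p and −1.09 (0.216) for miR-145a-3p. The guide arm of miR-143 thus stood above the other 3 arms there as well, from the same libraries.

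Ratios of arms within a library do not depend on how the libraries are scaled, and they were used to compare the members directly. A family of 6 ratios was tested with an exact two-sided permutation test of the stage labels, in which 3 libraries against 3 cannot give a p below 0.1, and p-values were adjusted over the 6. miR-143-3p over miR-145a-5p, the 2 guide arms, was 15.0, 17.1 and 12.4 at E14.5, against 18.3, 37.8 and 36.2 at P0. All P0 libraries were higher than all E14.5 libraries, although P0 replicate 1 was close to them. The log2 ratio averaged 3.88 ± 0.23 in the embryonic and 4.87 ± 0.59 in the newborn libraries (SD, n = 3), a difference of 0.99 or 1.99-fold (exact permutation p = 0.1, adjusted 0.2), which this design could not bring past 0.05. Without P0 replicate 1 the difference was 1.33.

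Within the miR-143 hairpin, the guide outnumbered the passenger by 62.0, 96.3 and 48.0 to 1 (TPM ratio) at E14.5, against 91.9, 161 and 199.6 to 1 at P0. P0 replicates 2 and 3 were above all E14.5 libraries, and P0 replicate 1 lay just below E14.5 replicate 2. The difference in the log2 ratio was 1.12, more than the pooled SD of 0.54 (exact permutation p = 0.2, adjusted 0.3; 1.44 without P0 replicate 1). In reads, the passenger arm took 1.59% (95% Wilson interval 1.50 to 1.68), 1.03% (0.995 to 1.06) and 2.04% (1.95 to 2.13) of the hairpin at E14.5. At P0 it took 1.08% (1.05 to 1.11), 0.616% (0.570 to 0.666) and 0.499% (0.471 to 0.528), so counting error was small beside the spread between litters.

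Within the miR-145a hairpin, the ratio of guide to passenger was 3.96, 3.44 and 3.50 at E14.5 and 3.30, 3.97 and 6.49 at P0. P0 replicate 3 alone stood apart, and the other P0 libraries spanned the E14.5 values. The log2 difference of 0.28 was below the pooled SD of 0.37 (exact permutation p = 0.6, adjusted 0.72). It was −0.0041 without P0 replicate 3 and 0.48 without P0 replicate 1. The passenger arm held 20.9% ± 1.3 of the hairpin's reads in the embryonic and 18.2% ± 4.9 in the newborn libraries (SD, n = 3). The passenger share was thus higher in miR-145a than in miR-143 in every library.

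**Figure D3:**
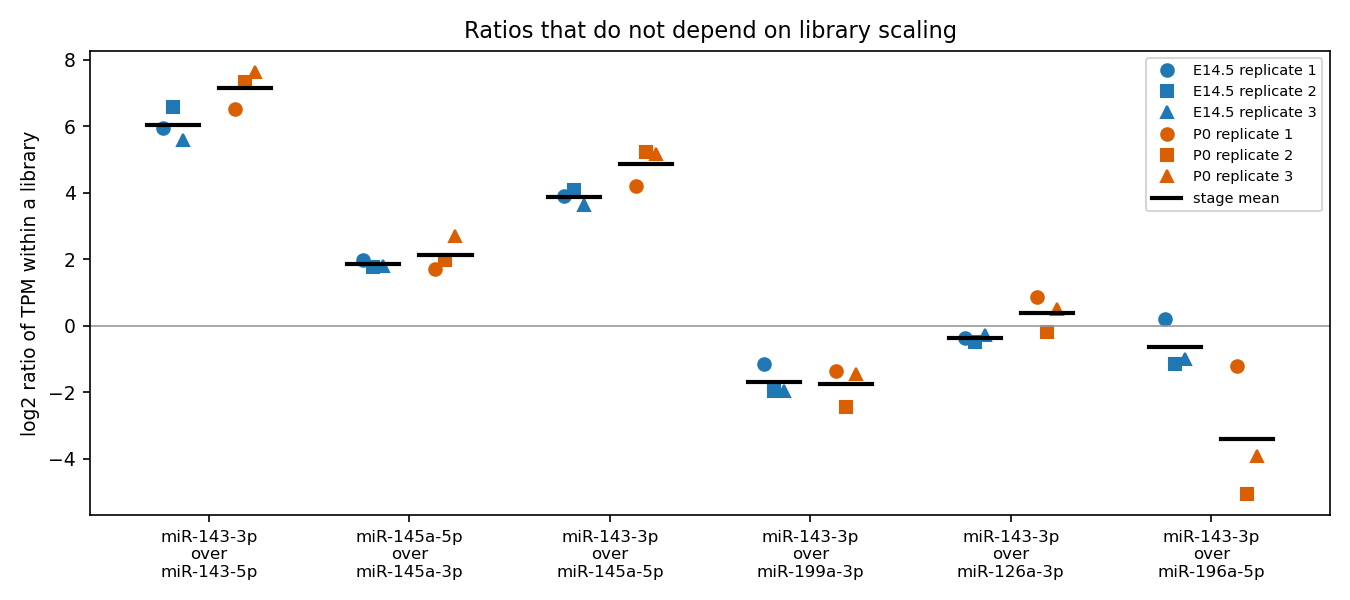
The 6 ratios of TPM within each library (log2), by stage; colours mark the stage, symbols the replicate, and black bars the mean of 3 libraries. miR-143-3p over miR-145a-5p, over miR-126a-3p and over miR-196a-5p show no overlap between the stages, and the other 3 ratios overlap.

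miR-143-3p was next set against miRNAs of other cell types. Its ratio to miR-199a-3p was 0.451, 0.258 and 0.257 at E14.5, against 0.386, 0.185 and 0.363 at P0. miR-199a-3p was the only stromal miRNA used for a ratio, and the stromal miRNAs did not all change alike, as given below. The stages overlapped throughout, with a log2 difference of −0.07 against a pooled SD of 0.53 (exact permutation p = 1, adjusted 1); leaving out single libraries moved it between −0.26 and 0.27, and the difference of stage medians was 0.49. Against miR-126a-3p the ratio was 0.777, 0.710 and 0.825 at E14.5 and 1.80, 0.872 and 1.42 at P0, higher in all P0 libraries (log2 difference 0.77, 1.70-fold; exact permutation p = 0.1, adjusted 0.2). Against miR-196a-5p it was 1.16, 0.450 and 0.495 at E14.5 and 0.432, 0.0298 and 0.0657 at P0. P0 replicate 1 was close to E14.5 replicate 2 there and the other P0 libraries were far lower (log2 difference −2.75; exact permutation p = 0.1, adjusted 0.2; −3.85 without P0 replicate 1). miR-196a-5p itself had 22892 to 37971 TPM at E14.5, against 28012, 161118 and 171747 TPM at P0.

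The marker lists gave the levels of miRNAs known from other cell types beside the cluster, and their part in the cluster's change was not tested. Such sums do not give the number of cells of a type. The 6 stromal miRNAs (both arms of miR-199a, miR-199b and miR-214) summed to 105336 to 128814 TPM at E14.5 and 52167 to 61988 TPM at P0. Of these, 3 of 6 were called lower in TPM (32.8% of all tested miRNAs) and 0 of 6 after median-of-ratios scaling (5.22%), with medians of −1.31 and −0.03. Without P0 replicate 1, 6 of 6 were called lower in TPM (53.4% of all), and after scaling 2 were called lower (27.2% of all) and 1 higher (21.6% of all). The calls in TPM with all libraries were miR-199a-3p at −1.14 (limma adjusted p = 0.0345), miR-214-3p at −2.98 and miR-214-5p at −3.01 (limma adjusted p of 0.00480 for both). After median-of-ratios scaling 3 of the 6 changes were negative and 3 positive. miR-199a-3p was then at 0.15 (limma adjusted p = 0.833). miR-214-3p was at −1.70 and miR-214-5p at −1.74 (limma adjusted p of 0.0777 and 0.0573), both lower without overlap, as were 19.6% of all tested miRNAs.

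Both endothelial arms fell in TPM, with log2 changes of −1.97 for miR-126a-3p and −4.22 for miR-126a-5p (limma adjusted p of 0.00610 and 0.00435). Their sum was 26608 to 44921 TPM at E14.5 and 5634 to 8158 TPM at P0. After median-of-ratios scaling miR-126a-5p alone of the pair passed, at −2.94 (limma adjusted p = 0.0332), and miR-126a-3p was at −0.69 (limma adjusted p = 0.282). The list thus had 2 of 2 called lower in TPM and 1 of 2 after scaling, against 32.8% and 5.22% of all tested miRNAs. Its median changes were −3.10 and −1.81, beside −1.20 and −0.17 for all. The counts without P0 replicate 1 were again 2 of 2 and 1 of 2, against 53.4% and 27.2% of all.

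The 8 miRNAs of the muscle list, most of which mark striated muscle, were at low levels. They summed to 30.0 to 78.0 TPM at E14.5 and to 16.4 to 134 TPM at P0, and 5 of them had no read in at least 1 library. Of the 4 that could be tested, 0 passed in TPM or after median-of-ratios scaling, against 32.8% and 5.22% of all tested miRNAs called lower. The median changes were −0.93 and −0.08, beside −1.20 and −0.17 for all; without P0 replicate 1, 1 of 4 was called lower in TPM (53.4% of all) and 0 of 4 after scaling (27.2% of all). miR-1a-3p, a cardiac and skeletal muscle miRNA, had 18.9, 36.7 and 28.2 TPM at E14.5 and 14.7, 12.3 and 109 TPM at P0, so P0 replicate 3 was the highest library.

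Erythroid miRNAs summed to 242 to 417 TPM at E14.5 and 127 to 189 TPM at P0, with 1 of 4 called lower in TPM. The leukocyte list summed to 632 to 1202 and 454 to 629 TPM, with 0 of 4 called. Epithelial miRNAs of the miR-200 family summed to 4122 to 23183 and 500.2 to 1542 TPM, and 5 of 5 were called lower. The share called lower among all tested miRNAs was 32.8%. After median-of-ratios scaling 0 of 4 erythroid and 3 of 5 epithelial miRNAs were called lower, and 1 of 4 leukocyte miRNAs was called higher, against 5.22% of all called lower and 5.67% higher. Without P0 replicate 1, the erythroid list had 2 of 4 called lower and 1 higher both in TPM and after scaling. In TPM 2 of 4 leukocyte and 5 of 5 epithelial miRNAs were then called lower, and after scaling 1 of 4 leukocyte miRNAs was called higher and 3 of 5 epithelial miRNAs lower. Of all tested miRNAs, 53.4% were then called lower and 7.76% higher in TPM, and 27.2% lower and 21.6% higher after scaling. With all libraries, the median changes in TPM and after that scaling were −1.67 and −0.54 for the erythroid, −0.77 and 0.43 for the leukocyte and −3.75 and −2.46 for the epithelial list, beside −1.20 and −0.17 for all tested miRNAs.

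**Figure D4:**
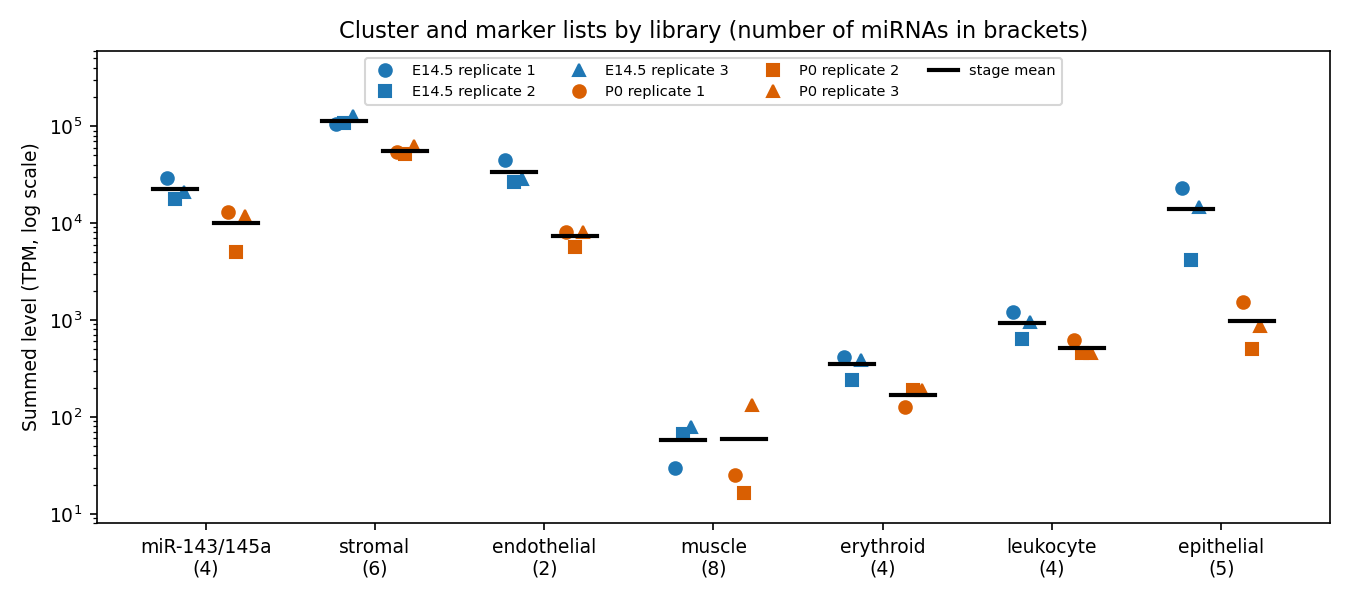
Summed TPM (log scale) of the 4 arms of the cluster and of each marker list, per library; colours mark the stage, symbols the replicate, and black bars the mean of 3 libraries. The cluster, stromal, endothelial, erythroid, leukocyte and epithelial sums are all lower in the P0 libraries, and the muscle sum reaches at most 134 TPM. The leukocyte stages nearly touch (632 against 629 TPM). These sums are not scaled, and the median of all tested miRNAs changed by −1.20 (log2) in TPM.

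The profile of miR-143-3p over the 6 libraries was then compared with those of 220 other miRNAs whose level averaged 100 TPM or more, by the root mean square difference of log2(TPM + 1) after centring each miRNA on its own mean. The closest were miR-30a-3p (0.298), miR-497a-5p (0.321), miR-30a-5p (0.338), miR-181a-1-3p (0.342) and miR-148b-3p (0.408), whose sequences are given above. miR-30a-3p had 2384, 1008 and 1615 TPM at E14.5 and 971, 505 and 654 TPM at P0, and miR-497a-5p had 224, 121 and 196 TPM at E14.5 and 121, 43.2 and 59.9 TPM at P0. In both, as in miR-143-3p, E14.5 replicate 1 was the highest library and P0 replicate 2 the lowest. The partners from the same cluster were less alike: miR-145a-5p differed by 0.612, miR-143-5p by 0.704 and miR-145a-3p by 0.856, so 38 of the 220 miRNAs were closer to miR-143-3p than its nearest cluster partner. These values describe 6 libraries that share depth and scaling within each library, and carry no test.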

How the data were processed

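Small RNA of 6 samples was sequenced from QIAseq libraries, per the labels' protocols. The authors deposited 1 table of 1104 rows with a TPM value per sample. The submitters' processing notes name featureCounts, DESeq2 (1.26.0) and mm10; trimming, the aligner and the use of molecular tags are not given in the sources used here. In each library 100% of the deposited TPM values times the end minus the start position were whole multiples of a step (tolerance 0.01 reads), which gave the recovered reads. Normalised to size factors, their mean equalled the deposited baseMean, a normalised signal, within 4.75e-15. The deposited log2 fold change, its statistic (a score), p-value and adjusted p-value are the authors', per the file headers; their sign was taken as P0 over E14.5.

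For 52 miRNAs with several rows the highest row was used. limma 3.58.1 (R 4.3.3, variance trend) was fitted to log2(TPM + 1) of the 670 miRNAs averaging 1 TPM or more, all 6 samples, stage as the only term, with Benjamini-Hochberg adjustment over all 670. The fit was also run on simulated reads with as many rises as falls. That setting lacks the fall of the typical miRNA in TPM, so it does not test the choice of scaling. Folds on this scale understate the change of low miRNAs. Ratios used scipy 1.17.1. For a step of 21 bases, 3 reads came to 0.0863 to 1.14 TPM; every arm of the cluster was far above it. Intervals (95%, Wilson) and floors cover counting error only. Members, lists and tests were chosen with earlier results of these data known. Named were the 4 arms, 3 ratio partners, the 5 closest profiles and members of the stromal, endothelial and muscle lists; miR-145b was named after its values were seen. Alternatives were other scalings, limma-voom, filters, a pseudocount of 0.1, summed rows, a replicate block and left-out libraries.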

Additional observations from a re-analysis of the deposited data

How the results depend on the processing

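The number of miRNAs called in limma, 229 in TPM (9 higher, 220 lower at P0), was 73 with median-of-ratios scaling (38 higher, 35 lower), 63 with upper-quartile scaling (38 higher, 25 lower) and 28 with limma-voom on recovered reads (17 higher, 11 lower), and 66 to 410 with single libraries left out. For miR-143-3p the change of −1.21 turned to 0.079, 0.21 and 0.10 under these 3 scalings and to 0.012 with median-of-ratios scaling without P0 replicate 1. The falls of miR-143-5p, miR-145a-5p and miR-145a-3p lost their call with median-of-ratios scaling (−1.04, −0.91 and −1.18), upper-quartile scaling (−0.90, −0.78 and −1.05) and limma-voom (−0.98, −0.88 and −1.14); the median of all miRNAs was −1.20 in TPM and −0.17, −0.08 and −0.29 in these 3 fits. The cause of the lost calls was not tested. Dropping the filter, raising it to 10 TPM, adding 0.1 in place of 1 or summing rows changed no call of an arm.

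With single libraries left out in TPM, the changes ranged from −1.45 to −0.78 for miR-143-3p, −2.86 to −1.80 for miR-143-5p, −2.77 to −1.58 for miR-145a-5p and −3.23 to −1.92 for miR-145a-3p; 1, 3, 3 and 2 of the 6 fits called them. The last 3 arms lost their call without E14.5 replicate 1, without E14.5 replicate 3 or without P0 replicate 2 (limma adjusted p of 0.0676 to 0.121), and miR-145a-3p also without P0 replicate 3 (0.0511); these fits used fewer samples. The summed share changed by −1.27 percentage points (−1.53 to −0.94 with libraries left out). These shares are in TPM, where the median of all tested miRNAs changed by −1.20.

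The ratio differences ranged, with libraries left out, from 0.81 to 1.33 (miR-143-3p over miR-145a-5p), 0.89 to 1.44 (over miR-143-5p), −0.26 to 0.27 (over miR-199a-3p; 0.49 between medians), 0.53 to 1.06 (over miR-126a-3p), −3.85 to −1.92 (over miR-196a-5p) and −0.0041 to 0.48 (miR-145a-5p over miR-145a-3p). The deviations of same-numbered libraries correlated at 0.19, 0.18 and 0.04, and those of differently numbered libraries at −0.18 to 0.08. The numbers were not taken as pairs in the main fit, and these correlations do not settle whether they are pairs. With the replicate block 247 miRNAs were called in TPM and 67 with median-of-ratios scaling. On that scale the arms stayed at 0.079, −1.04, −0.91 and −1.18 with no call. The unadjusted limma p of the last 3 arms was 0.037, 0.049 and 0.035 there. In TPM miR-143-3p passed with the block (−1.21, limma adjusted p = 0.0449). The least covered value of an arm, miR-143-5p in P0 replicate 2, rested on 629 reads; depth was not matched across libraries.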
